A study of Rattus norvegicus with 6 samples.

Results

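Nkx2-5, Tbx2, Tbx3, Tbx5, Tbx20, Gata4, Gata6, Hand1 and Hand2 are transcription factors of the developing heart, and Gja1 encodes connexin 43, the main gap junction protein of the ventricle. RNA of these 10 genes was compared between Nono-KO and WT H9c2 cells, with the genes picked by their symbols out of 16319 rows of read counts per gene. Of the 10, 8 had a row and 7 were abundant enough to be tested. Tbx5 was left out by the filter on low counts, and Tbx20 and Hand1 matched no row by symbol and were not analysed here.

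H9c2 is a cell line from embryonic rat heart, labelled by the submitters as cardiac muscle and as cardiomyocytes. The Nono-KO cells had been transfected with a PX459 plasmid carrying Cas9 and a guide RNA against Nono, selected with puromycin and, in the scheme of the study, expanded from a single clone. The WT cells carry the wild type genotype, and both were kept in DMEM with fetal bovine serum. No source used here says whether the WT cells had received the control plasmid pEGFP-N1. Each group had 3 libraries of stranded, poly(A)-selected RNA, with 17612958 to 18770188 counts in Nono-KO and 18138400 to 19253858 in WT libraries. The study calls them biological replicates, but the p-values rest on the spread among libraries of a single knockout clone and cannot tell the loss of Nono apart from other properties of that clone.

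In the heart, Nkx2-5, the GATA factors and the T-box factors bind DNA as partners and switch on contractile and conduction genes of the muscle cell. Tbx2 and Tbx3 act mostly as repressors. In the mouse they keep the atrioventricular canal and parts of the conduction system from taking on the character of working myocardium, and Gja1 is among the genes they repress. Tbx5 works with Nkx2-5 and Gata4 as an activator, and Hand2 is a basic helix-loop-helix (bHLH) factor needed for growth of the right ventricle.

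The promoters of the genes with the largest fall and the largest rise among the 7 tested, Gja1 and Nkx2-5, are shown for the letters that factors of these families bind. RefSeq windows of 300 bases (build GRCr8, 250 before to 50 after a transcript start) were found for 7 of the 10 genes. Capitals mark matches, on either strand, to GATAA (GATA factors, in 26.5% of all 33469 windows), TNAAGTG (NK2 factors such as Nkx2-5, 11.5%), GGTGTG (a T-box half-site, 17.9%), CANNTG (the E-box of bHLH factors, 72.1%) and TGANTCA (AP-1, 7.33%). The Gja1 window lies on the plus strand of chr20:36302314-36302613 and the Nkx2-5 window on the plus strand of chr10:16848350-16848649.
Gja1: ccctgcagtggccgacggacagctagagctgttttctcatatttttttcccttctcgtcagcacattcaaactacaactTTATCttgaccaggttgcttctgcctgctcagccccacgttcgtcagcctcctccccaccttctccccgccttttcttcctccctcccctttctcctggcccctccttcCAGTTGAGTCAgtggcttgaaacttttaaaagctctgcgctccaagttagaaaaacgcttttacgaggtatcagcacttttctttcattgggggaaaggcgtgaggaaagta
Nkx2-5: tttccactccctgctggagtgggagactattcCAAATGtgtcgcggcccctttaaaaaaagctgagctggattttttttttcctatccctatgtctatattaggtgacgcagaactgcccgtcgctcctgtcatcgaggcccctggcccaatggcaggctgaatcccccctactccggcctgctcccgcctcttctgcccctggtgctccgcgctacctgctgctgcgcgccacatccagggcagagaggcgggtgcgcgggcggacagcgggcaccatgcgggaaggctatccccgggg
The Gja1 window held 1 GATAA match on the opposite strand and 1 E-box that overlaps its only TGANTCA match. The Nkx2-5 window held 1 E-box and none of the other 4 motifs. These are matches of letters in a window and not measured binding sites.

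The knocked-out gene was checked first. Nono stood at 6.38, 5.23 and 5.08 CPM in the Nono-KO libraries and at 365, 315 and 307 CPM in the WT libraries. CPM are counts scaled to a common library total with TMM factors. They are not divided by gene length, so that they compare a gene between libraries and not genes with each other.

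Connexin 43 was lower and the cardiac transcription factors went both ways in Nono-KO cells. Of the 7 genes tested, Nkx2-5 and Tbx2 rose, Tbx3, Gata6 and Gja1 fell, whereas Gata4 and Hand2 missed the threshold (adjusted p under 0.05, quasi-likelihood test of edgeR with Benjamini-Hochberg adjustment over all 12028 genes tested). Among all genes tested 72.2% passed, 34.2% upwards and 38.1% downwards, so that 5 of 7, or 71.4%, is near the background and the share by itself is no result about these genes. The libraries of the groups did not overlap in 6 of the 7 genes and in 75.1% of all genes tested. With the limits of the study for DEGs, which ask for more than 1 on the log2 scale in either direction at an adjusted p below 0.01, only Gja1 was called among the 7, against 29.5% of all genes tested. Libraries of a group resembled each other, with correlations of log2 CPM across genes of 0.993 to 0.995 in Nono-KO and 0.985 to 0.993 in WT, and WT replicate 1 stood apart from the other WT libraries in several genes named further on. Without it the log2 fold changes were -1.28 for Gja1, 0.84 for Nkx2-5, 0.41 for Tbx2, -0.53 for Tbx3, -0.82 for Gata6, 0.20 for Gata4 and 0.077 for Hand2, with the same calls.

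**Figure D1:**
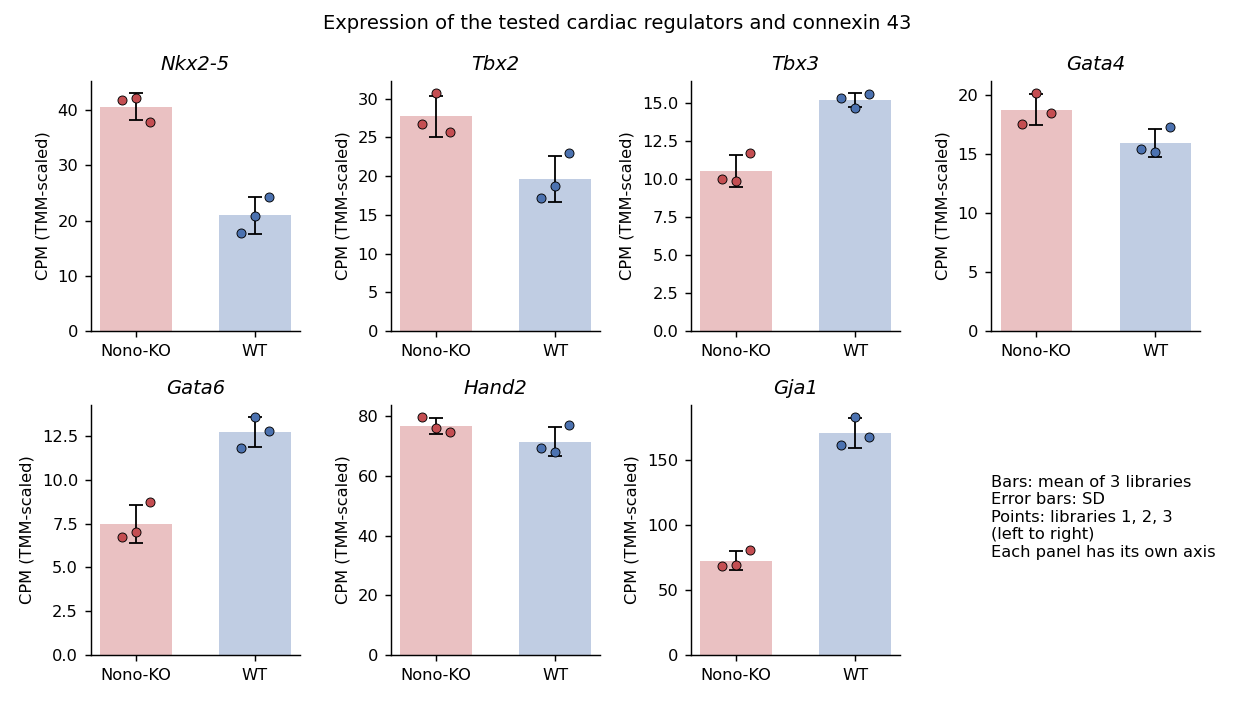
CPM after TMM scaling (vertical axes, from 0, each panel with its own range) of the 7 tested genes in Nono-KO and WT cells, with points for the 3 libraries of each group, bars for means and error bars for SD. The groups lie apart in every panel but that of Hand2, where WT replicate 3 reaches into the Nono-KO range, and in Gata4 the gap is narrow, at 17.5 against 17.3 CPM.

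Gja1 had 68.2, 69.0 and 80.8 CPM in the Nono-KO libraries, against 162, 184 and 168 CPM in the WT libraries. All 3 Nono-KO libraries were below all WT libraries, with 1166 to 1526 counts behind the Nono-KO values and 3021 to 3434 behind the WT values. The means were 72.7 ± 7.05 CPM in Nono-KO and 171 ± 11.3 CPM in WT cells (SD, n = 3 each). The log2 fold change of Nono-KO over WT was -1.23 (standard error 0.096, 95% interval -1.45 to -1.02, adjusted p = 6.96e-07 from edgeR), which puts the level in Nono-KO cells at 0.425 times that in WT (95% interval 0.367 to 0.492). A change of this size or larger in either direction was seen in 22.2% of all genes tested. In bulk RNA, fewer cells that express a gene and less RNA per cell cannot be told apart, for this gene and those that follow.

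Nkx2-5, a homeobox factor and an early regulator of heart muscle formation, had 41.9, 42.2 and 37.8 CPM in Nono-KO libraries, against 17.7, 20.8 and 24.3 CPM in WT libraries. Every Nono-KO library was above every WT library. The means were 40.6 ± 2.48 CPM in Nono-KO and 20.9 ± 3.30 CPM in WT cells (SD, n = 3 each), with a log2 fold change of 0.96 (standard error 0.12, 95% interval 0.68 to 1.23, adjusted p = 3.04e-05 from edgeR), or 1.94 times the WT level. The increase was larger in absolute size than that of 67.7% of all genes tested, and just short of the fold limit of the study for DEGs.

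The T-box repressors Tbx2 and Tbx3, close relatives, moved in opposite directions. Tbx2 had 26.7, 30.7 and 25.7 CPM in Nono-KO libraries, against 17.2, 18.8 and 22.9 CPM in WT libraries, and the groups did not overlap. The increase in Tbx2 was 0.50 on the log2 scale (95% interval 0.21 to 0.79, standard error 0.13, adjusted p = 0.00484 from edgeR). Tbx3 had 10.0, 9.85 and 11.8 CPM in Nono-KO libraries, against 15.4, 14.7 and 15.6 CPM in WT libraries, again without overlap. It fell by 0.53 on the log2 scale (standard error 0.13, 95% interval -0.81 to -0.25, adjusted p = 0.00293 from edgeR).
Tbx5, an activator of chamber and conduction genes, was not detected above the limit that a count of 0 allows. It had 1 count in Nono-KO replicate 1 and 0 counts in the other libraries of both groups. A count of 0 allows up to 3 counts, or 0.149 to 0.175 CPM depending on the library, for counting error only, and no fold change was computed. In the RefSeq annotation of GRCr8, another build than that of the submitters' notes, Tbx2 overlaps an unnamed gene, and it is not given whether the counting used the strand, so that reads of the pair cannot be told apart.

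The zinc finger factors Gata4 and Gata6, which overlap in function during heart development in the mouse, also differed. Gata6 had 6.73, 7.01 and 8.74 CPM in Nono-KO libraries, against 11.8, 13.6 and 12.8 CPM in WT libraries. The Nono-KO libraries lay below all WT libraries. The gene fell by 0.76 on the log2 scale (standard error 0.15, 95% interval -1.09 to -0.43, adjusted p = 0.000701 from edgeR).
Gata4 had 17.5, 20.1 and 18.5 CPM in Nono-KO libraries, against 15.4, 15.1 and 17.3 CPM in WT libraries, and did not pass. Its difference of 0.23 on the log2 scale had a standard error of 0.12 and a 95% interval of -0.029 to 0.49 (edgeR, adjusted p = 0.0992). The lowest Nono-KO library was barely above the highest WT library. An unnamed long noncoding RNA gene overlaps Gata4 in the same RefSeq annotation.

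Hand2, the bHLH factor of the right ventricle and of the branchial and limb mesenchyme, had 79.9, 76.1 and 74.7 CPM in Nono-KO libraries, against 69.3, 68.2 and 77.1 CPM in WT libraries. The groups overlapped through WT replicate 3. Its difference was 0.10 on the log2 scale with a standard error of 0.087 (edgeR, adjusted p = 0.297), and the 95% interval of -0.086 to 0.30 leaves room for a change of at most 1.23 times upwards. This was the smallest change among the 7 genes, and only 8.88% of all genes tested had a smaller one in absolute size.

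**Figure D2:**
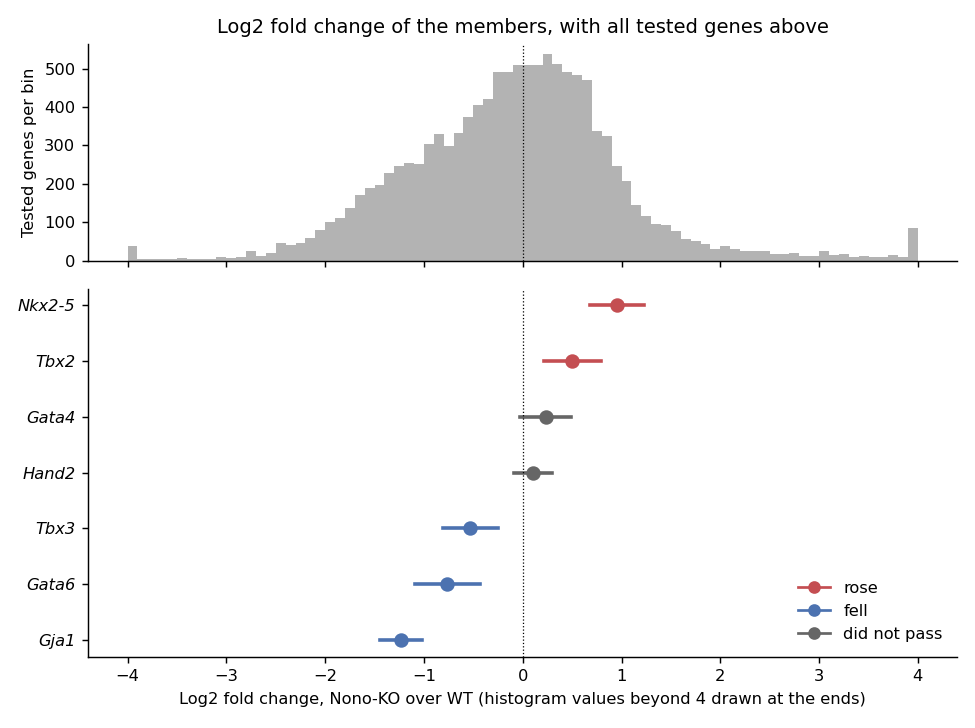
Log2 fold change of Nono-KO over WT (horizontal axis) for the 7 tested genes in the lower panel, with points for estimates and lines for 95% intervals, below a histogram of all 12028 genes tested (vertical axis, genes per bin, with values beyond 4 in either direction drawn at the ends). Nkx2-5 at 0.96 and Gja1 at -1.23 mark the ends of the 7, and the intervals of Gata4 and Hand2 include 0.

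The order of the fold changes, from Nkx2-5 at 0.96 through Tbx2, Gata4, Hand2, Tbx3 and Gata6 to Gja1 at -1.23, has neighbours whose 95% intervals overlap. Those of Nkx2-5 (0.68 to 1.23) and Tbx2 overlap narrowly. Those of Tbx2 (0.21 to 0.79) and Gata4 (-0.029 to 0.49) overlap, as do those of Gata4 and Hand2, and those of Tbx3 and Gata6. The interval of Gja1 overlaps that of Gata6 by a small margin, at -1.02 against -1.09. The median of the 7 was 0.10, against -0.049 over all genes tested.

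Because both genes of a pair are read from the same library, the ratio of their counts does not depend on the scaling of the libraries. The pairs were chosen after the values were seen. The Tbx2 to Tbx3 ratio was 2.67, 3.12 and 2.19 in Nono-KO libraries, against 1.12, 1.28 and 1.47 in WT libraries, or 2.06 times higher in Nono-KO cells. The Gata4 to Gata6 ratio was 2.61, 2.87 and 2.12 in Nono-KO libraries, against 1.30, 1.11 and 1.35 in WT libraries, or 2.01 times higher. For both pairs the ranges of the groups lay apart. An exact two-sided permutation test gave p = 0.1 for each of the 4 pairs compared, 2 of connexins among them, and also p = 0.1 after adjustment over the 4, which is the smallest value that 3 against 3 libraries can give. The adjustment does not cover the choice of pairs by their values, so that no support is drawn from these p-values.

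**Figure D3:**
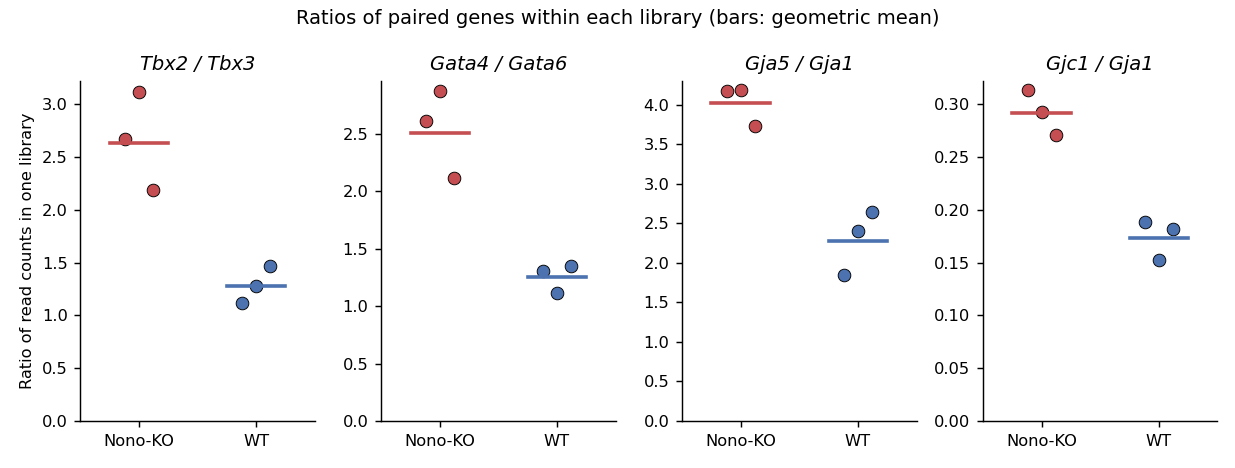
Ratio of the read counts of 2 genes within a library (vertical axes, from 0) in Nono-KO and WT cells, with points for the 3 libraries of each group and bars for geometric means. Every ratio is higher in all Nono-KO libraries, from 1.68 times for Gjc1 to Gja1 up to 2.06 times for Tbx2 to Tbx3, and both connexin ratios share Gja1 as their denominator.

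The other connexins went both ways. Of 22 other connexins and pannexins listed, 14 had a row and 5 were tested, of which 2 rose, 2 fell and 1 did not pass (edgeR, adjusted p under 0.05), with a median log2 fold change of -0.13. Gjb5, a skin connexin that rose, was at 3.33, 3.34 and 3.12 CPM in Nono-KO libraries, against 0.15, 0 and 0.28 CPM in WT libraries, and was named after its values were seen. It passed the filter through Nono-KO libraries alone, with 57, 60 and 59 counts there and 3, 0 and 5 in WT libraries. The counts by direction and the median of these connexins thus depend on the filter.
Gja5, the connexin 40 of atria and conduction system and a target of Tbx5 and Nkx2-5 in the mouse, had 285, 289 and 301 CPM in Nono-KO libraries, against 298, 442 and 444 CPM in WT libraries. WT replicate 1 lay within the Nono-KO range. Gja5 fell by 0.44 on the log2 scale (standard error 0.13, adjusted p = 0.0111 from edgeR), and by 0.61 without WT replicate 1. Gjc1, the connexin 45 of the nodes, had 21.4, 20.2 and 21.9 CPM in Nono-KO libraries, against 30.4, 28.1 and 30.5 CPM in WT libraries, and fell by 0.49 (standard error 0.10). Relative to Gja1, both Gja5 and Gjc1 were higher in Nono-KO libraries. The Gja5 to Gja1 ratio of counts was 4.18, 4.18 and 3.73 in Nono-KO libraries, against 1.84, 2.41 and 2.64 in WT libraries. Gja4, of the vascular endothelium and also named after its values were seen, did not pass, at 3.45, 3.56 and 2.86 CPM in Nono-KO and 4.53, 3.32 and 2.95 CPM in WT libraries.

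RNA of genes on a list of connexin 43 partners and the intercalated disc was more often lower than higher. Of 25 such genes tested, 15 fell, 4 rose and 6 did not pass (edgeR, adjusted p under 0.05), with a median log2 fold change of -0.40 against -0.049 over all genes tested. Of all genes tested 38.1% fell and 34.2% rose. Akap12, a scaffold of protein kinase A, had 42.3, 34.5 and 46.9 CPM in Nono-KO libraries, against 307, 841 and 755 CPM in WT libraries (log2 fold change -3.94, standard error 0.42), or -4.28 without WT replicate 1. Vcl, which encodes the actin linker vinculin, fell by 1.72 on the log2 scale (standard error 0.099). Nedd4, the gene of a ubiquitin ligase that marks connexin 43 for removal, fell by 1.68 (standard error 0.098). Tjp1, the scaffold ZO-1 that binds the tail of connexin 43 and was named after its values were seen, had 31.8, 31.8 and 26.5 CPM in Nono-KO libraries, against 65.3, 83.5 and 72.9 CPM in WT libraries, and fell by 1.30. Dbn1, which encodes drebrin, a connexin 43 partner at the actin cytoskeleton, rose by 1.10 (standard error 0.092). Lmna, of the nuclear lamina, stood at 2178 ± 216 CPM in Nono-KO and 2175 ± 202 CPM in WT cells (SD, n = 3 each), and N-cadherin (Cdh2), named after its values were seen, had 6, 9 and 4 counts in Nono-KO and 8, 6 and 3 counts in WT libraries.

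Relatives and cofactors of the 9 transcription factors went both ways. The 21 tested divided into 12 that fell, 4 that rose and 5 that did not pass (edgeR, adjusted p under 0.05), with a median log2 fold change of -0.43. The number that fell was 9 to 13 when single libraries were left out, and 9 both without WT replicate 3 and without Nono-KO replicate 1, while 38.1% of all genes tested fell. Nkx2-3, an NK2 relative of Nkx2-5, had 6.61, 7.90 and 5.61 CPM in Nono-KO libraries, against 1.84, 1.18 and 0.89 CPM in WT libraries. Its log2 fold change was 2.35 (standard error 0.27), in the same direction as that of Nkx2-5.
Among T-box genes, Mga, which joins a T-box to a bHLH domain, had 1.52, 2.23 and 0.85 CPM in Nono-KO libraries, against 5.77, 11.3 and 6.18 CPM in WT libraries (log2 fold change -2.34, standard error 0.35). Tbx18, a factor of epicardium and sinus node, and Tbx15, of mesenchyme, both, like Tbx19, named after their values were seen, fell by 0.82 and 1.05. With Tbx3, this left Tbx2 as the only one of the 6 tested T-box genes, Tbx19 included, that rose, while Tbx19 did not pass at 0.48.
Zfpm2, which encodes FOG2, the GATA4 cofactor of heart development, had 5.26, 4.90 and 5.24 CPM in Nono-KO libraries, against 10.5, 13.6 and 13.9 CPM in WT libraries, and fell by 1.30. It was named after its values were seen, as was Gata2, a blood and endothelial GATA factor, which rose by 0.65.

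Related bHLH factors and their inhibitors went both ways, and some of them, like Hand2, did not pass. Tcf3, an E protein with which Hand2 can pair, had 314, 312 and 293 CPM in Nono-KO libraries, against 169.5, 180 and 189 CPM in WT libraries, and rose (log2 fold change 0.77, standard error 0.081). Tcf12, another E protein, had 11.2, 9.63 and 10.7 CPM in Nono-KO libraries, against 30.6, 46.3 and 41.2 CPM in WT libraries, and fell by 1.90 (standard error 0.16). The remaining E protein, Tcf4, fell by 0.76. Of the Id proteins, inhibitors that bind E proteins, Id1 rose by 1.24, Id2 fell by 1.27 and Id4 did not pass (-0.023), and Tcf4, Id1, Id2 and Id4 were named after their values were seen. Id3 did not pass either (log2 fold change -0.17, adjusted p = 0.130 from edgeR). Id3 had 342 ± 17.2 CPM in Nono-KO and 385 ± 43.7 CPM in WT cells (SD, n = 3 each), and it passed without WT replicate 1 (-0.27, adjusted p = 0.00892 from edgeR) and with scaling by total counts (-0.22, adjusted p = 0.0379 from edgeR).

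Other cardiac transcription factors fell more often than they rose. The 29 tested divided into 19 that fell, 5 that rose and 5 that did not pass (edgeR, adjusted p under 0.05), with a median log2 fold change of -0.79. Of all genes tested 38.1% fell and 34.2% rose, with a median of -0.049. Mesp2, with 34, 40 and 31 counts in Nono-KO and 2, 2 and 4 in WT libraries, rose and passed the filter through Nono-KO libraries alone. So did Foxh1, with 15, 12 and 15 against 6, 7 and 6 counts. Mef2b was close to this, with 33, 40 and 30 against 12, 6 and 6. Hey2, lower in Nono-KO libraries, was left out by the filter. These genes were named after their values were seen, and the counts by direction and the median depend on the filter. Foxc2, a forkhead factor of outflow tract and vessels, fell by 4.38, and Mef2d, a MADS-box factor, by 0.31. Mef2d missed the threshold without Nono-KO replicate 3 (-0.24, adjusted p = 0.0504 from edgeR). Prrx2, a homeobox factor of mesenchyme, had 28.2, 22.4 and 22.6 CPM in Nono-KO libraries, against 5.72, 2.19 and 2.62 CPM in WT libraries (log2 fold change 2.78, standard error 0.28). Smyd1, a muscle methyltransferase upstream of Hand2 in the mouse heart, had 15.6 ± 1.16 CPM in Nono-KO and 2.88 ± 0.235 CPM in WT cells (SD, n = 3 each). Srf, which binds the promoters of contractile genes with Nkx2-5 and Gata4, did not pass (log2 fold change -0.20, adjusted p = 0.159 from edgeR), but passed without WT replicate 1 (-0.34, adjusted p = 0.00198 from edgeR).

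Of tested target genes that Nkx2-5, the GATA factors, the T-box factors or Hand2 are known to regulate in heart muscle, more rose than fell. Of 24 tested, 15 rose, 5 fell and 4 did not pass (edgeR, adjusted p under 0.05), with a median log2 fold change of 1.26. Of all genes tested 34.2% rose and 38.1% fell. Sln rose and passed the filter through Nono-KO libraries alone, with 19, 25 and 23 counts there and 0, 2 and 0 in WT libraries. So did Actc1, with 58, 94 and 51 against 1, 9 and 6 counts, and Lmod2, with 13, 17 and 12 against 0, 0 and 4. Ckm was close to this, with 53, 87 and 58 against 2, 14 and 6. Nppb, with 1, 0 and 1 counts in Nono-KO and 13, 7 and 4 in WT libraries, was left out by the filter. These genes were named after their values were seen. The counts by direction and the median thus depend on the filter. The slow troponin I gene Tnni1 had 12.6, 13.7 and 10.1 CPM in Nono-KO libraries, against 0.50, 1.55 and 2.00 CPM in WT libraries (log2 fold change 3.18, standard error 0.33). Pln, which encodes phospholamban, the brake on the calcium pump, rose by 2.82 (standard error 0.43). Popdc2, which encodes a cyclic AMP-binding membrane protein of heart and muscle, rose by 2.62 (standard error 0.24). Tnnc1, troponin C of slow and cardiac muscle, had 749 ± 39.5 CPM in Nono-KO and 287 ± 16.1 CPM in WT cells, and the stress-responsive Ankrd1 had 823 ± 148 CPM in Nono-KO and 394 ± 59.5 CPM in WT cells (SD, n = 3 each).
The 5 target genes that fell are named here with their values known. They were the sodium-calcium exchanger Slc8a1 (-1.17), the calcium channel subunits Cacna1c (-0.86) and Cacna1g (-0.74), the calcium pump Atp2a2 (-0.76) and calsequestrin Casq2 (-0.66). For Cacna1g and Casq2, WT replicate 1 lay within the Nono-KO range. Cacna1g had 14.9 to 17.8 CPM in Nono-KO libraries, against 17.7 CPM in WT replicate 1.

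The share of tested genes that passed lay between 76.0% and 83.3% in the 5 related lists, beside 72.2% of all genes tested.

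**Figure D4:**
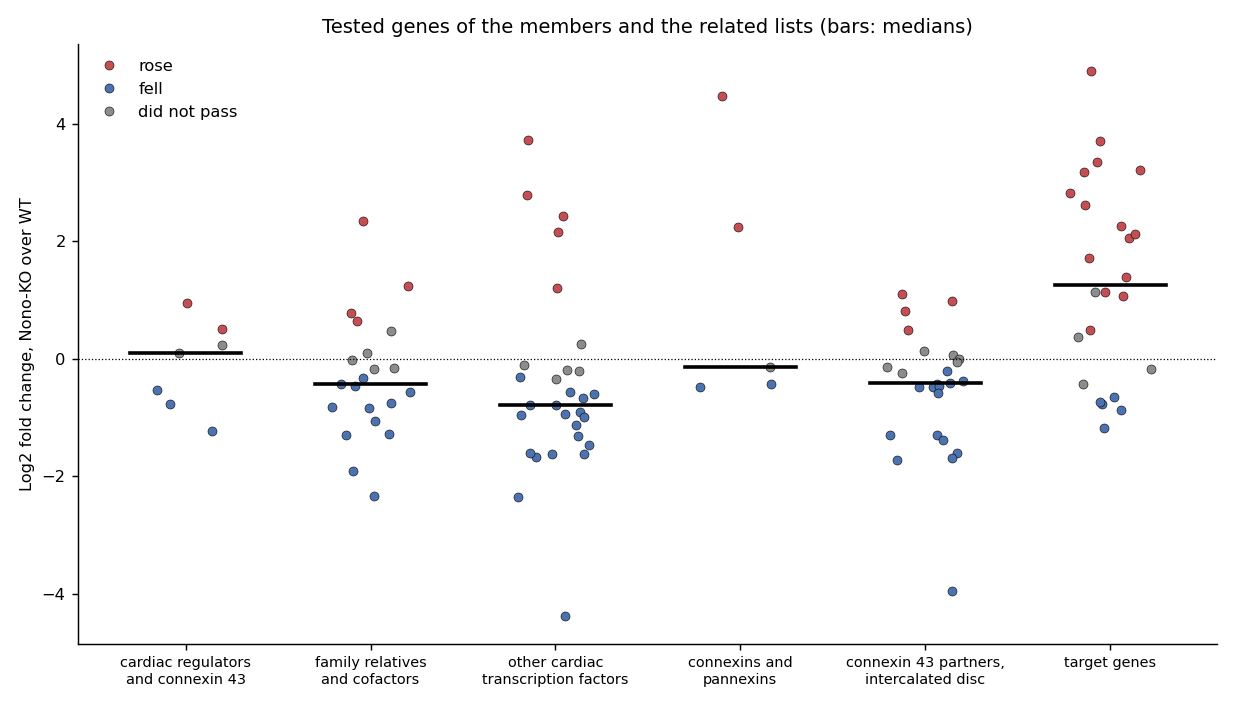
Log2 fold change of Nono-KO over WT (vertical axis) for the tested genes of the 7 and of each related list (horizontal axis), with points for genes, coloured by call (higher, lower or not past an adjusted p of 0.05), and bars for medians. The medians are 0.10 for the 7, -0.43, -0.79, -0.13 and -0.40 for the next 4 lists and 1.26 for the target genes.

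The labelled cell type was set against its markers, of which those named were picked with their values known. Of 12 cardiomyocyte markers 5 were tested, and Nppa, Myl7 and Ryr2 had under 3 counts in every library. Tnnt2, the cardiac troponin T, was the only marker of the list with more than 6 CPM, at 111, 135 and 137 CPM in Nono-KO libraries, against 13.4, 78.0 and 83.0 CPM in WT libraries, and it did not pass (adjusted p = 0.180 from edgeR). Actc1, Pln and Actn2 rose by 3.71, 2.82 and 2.81 on the log2 scale, and Myh6 did not pass (-0.42). Actc1 and Actn2 passed the filter through Nono-KO libraries alone. Actn2 had 19, 24 and 19 counts in Nono-KO and 3, 3 and 3 in WT libraries. Of the 12 skeletal myoblast markers 8 had a row and 7 were tested. Myod1 had 161, 148 and 143 CPM in Nono-KO libraries, against 113, 117 and 148 CPM in WT libraries. It did not pass (adjusted p = 0.0501 from edgeR). Myog rose, with 99.1, 117 and 101 CPM in Nono-KO libraries, against 4.63, 7.59 and 7.29 CPM in WT libraries. Cdh15, the most abundant of the list, did not pass, at 572 ± 30.5 CPM in Nono-KO and 485 ± 78.9 CPM in WT cells. Myh8 did not pass either, at 1.21 ± 0.402 CPM in Nono-KO and 2.19 ± 1.64 CPM in WT cells (SD, n = 3 each). Myh3, Mymx and Mymk rose by 3.51, 3.52 and 1.69 on the log2 scale. Mymx, with 57, 81 and 74 counts in Nono-KO and 5, 5 and 9 in WT libraries, passed the filter through Nono-KO libraries alone. Chrna1 had 6, 13 and 5 counts in Nono-KO and 5, 2 and 11 counts in WT libraries.
The summed level of the markers differed between the groups for several lists. It was 122 to 148 CPM in Nono-KO and 15.8 to 86.5 CPM in WT libraries for cardiomyocyte markers (3 of 5 tested rose), mostly Tnnt2. For skeletal myoblast markers it was 838 to 948 CPM in Nono-KO, against 545 to 743 CPM in WT libraries (4 of 7 rose). The counts of markers that rose in these 2 lists depend on the filter. Smooth muscle markers summed to 14653 to 15734 CPM in Nono-KO and 6794 to 7659 CPM in WT libraries (5 of 8 rose, 2 fell), and fibroblast markers to 25287 to 30155 CPM in Nono-KO and 34320 to 41941 CPM in WT libraries (1 of 5 rose, 4 fell). Epicardial markers summed to 427 to 493 CPM in Nono-KO and 93.3 to 132 CPM in WT libraries (1 of 4 rose, 2 fell), mostly Msln in Nono-KO libraries. Endothelial markers summed to 0.760 to 1.27 CPM in Nono-KO and 2.94 to 4.45 CPM in WT libraries, with Emcn and Kdr at no more than 1 count. Macrophage markers summed to 28.1 to 33.0 CPM in Nono-KO and 31.8 to 44.8 CPM in WT libraries (1 of 3 fell), mostly Cd14. Their part in the differences of the 7 genes was not tested.

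Each of the 7 was also matched with the genes whose pattern over the 6 libraries was closest, measured as the root mean square distance of log2 CPM centred on each gene's mean. The candidates were the tested genes with a named symbol and at least 10 CPM on average, 7816 for each gene. Gja1 was closest to Trak2 (distance 0.031) and Nop14 (0.033), with log2 fold changes of -1.23 each. Nkx2-5 was closest to Slc12a7 (0.034) and Ifngr2 (0.037), and Tbx2 to Plod1 (0.051) and Zbtb7b (0.052). Tbx3 was closest to Brpf1 (0.016) and Zw10 (0.018), Gata6 to Smarcc1 (0.017) and Memo1 (0.043), Gata4 to Pgam1 (0.034) and Hif1an (0.036), and Hand2 to Icmt (0.024) and Gga1 (0.028). With 2 groups this distance follows mainly the size of the group difference, and it is a description.

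**Figure D5:**
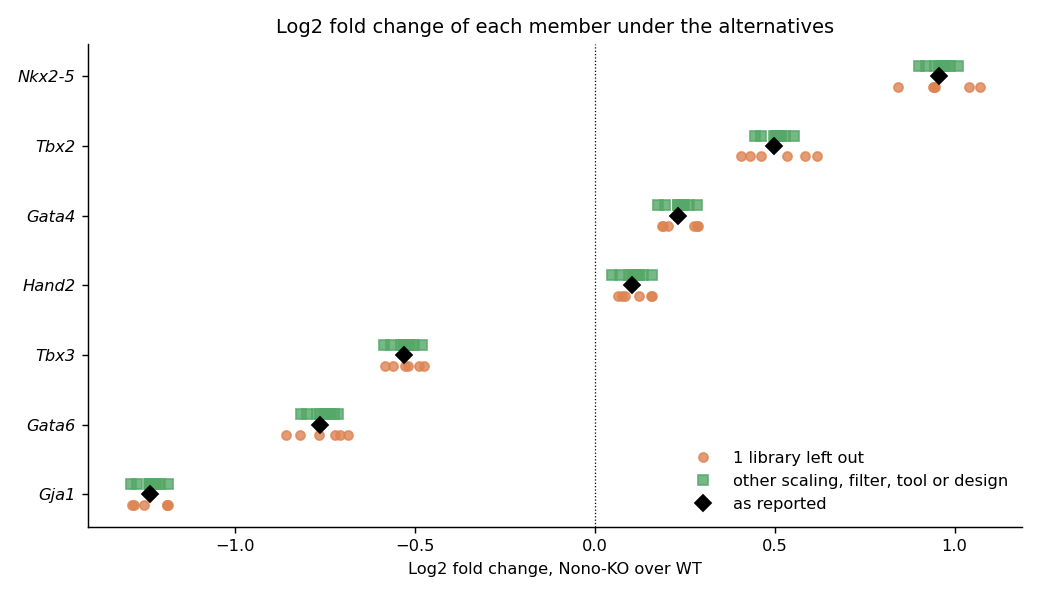
Log2 fold change of Nono-KO over WT (horizontal axis) of each of the 7 genes as reported and under the alternative settings, with circles for fits that leave out 1 library and squares for other scalings, filters, tools or designs. Gja1 stays between -1.29 and -1.18 and Nkx2-5 between 0.84 and 1.07, and no gene changes its direction.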

How the data were processed

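RNA-seq of 3 Nono-KO and 3 WT libraries of H9c2 cells was analysed, with groups and numbers taken from the submitters' labels. The values deposited by the authors are unnormalised read counts by gene symbol, not pooled over libraries. Trimmomatic, HISAT2 and HTSeq, with the build mRatBN7.2, are listed in the submitters' notes, whereas the methods of the study name Bowtie2 and Rn6. No source used here says which annotation and strand setting were used, or how reads shared between similar genes were treated. Counts were analysed in R 4.3.3 with edgeR 4.0.16 (quasi-likelihood test, robust dispersions, TMM scaling, filterByExpr), and 12028 of 16319 genes were tested. DESeq2 1.42.0, the tool of the study, was an alternative. A gene is said to rise or fall where the adjusted p is under 0.05. Standard errors were obtained from the F statistic and the log2 fold change. The fit was tried on simulated data with 200 genes changed, as many upwards as downwards. In the real data 72.2% of genes tested passed, and the simulation does not cover scaling and calls at that share. Totals of 17612958 to 19253858 counts per library leave genes with a few counts without a precise fold change.

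The 10 genes and the related gene lists were chosen with earlier results of these data known. From each of the 5 related lists the text names the 2 with the highest CPM and up to 3 genes with the largest change past the threshold, if they reached 5 CPM in either group, and it says where other genes were named after their values were seen. A gene that this rule selects is not reported here. Alternatives were other scalings, filters, dispersions, thresholds and tools, thinning to equal totals, a block for the replicate number, and leaving out each library.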

Additional observations from a re-analysis of the deposited data

How the results depend on the processing

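Under 15 other fits (scaling, filter, tool, dispersion, replicate block, thinning, and each library left out), none of the 7 genes changed direction or its side of the adjusted p of 0.05. Gata4 came closest to it, with an adjusted p of 0.0501 from edgeR with scaling by size factors. Leaving out 1 library gave -1.28 to -1.18 for Gja1, 0.84 to 1.07 for Nkx2-5, 0.41 to 0.62 for Tbx2, -0.58 to -0.47 for Tbx3, -0.86 to -0.69 for Gata6, 0.19 to 0.29 for Gata4 and 0.066 to 0.16 for Hand2 (log2 fold change). With the limits of the study (more than 1 on the log2 scale at an adjusted p below 0.01), fewer or as many genes passed by construction. Among the 7, 0 rose and 1 fell, since Nkx2-5 (0.96), Tbx2 (0.50), Tbx3 (-0.53) and Gata6 (-0.76) missed the fold limit. For Nkx2-5 this depended on the fit. It passed both limits with scaling by size factors (1.01), without WT replicate 3 (1.07) and without Nono-KO replicate 3 (1.04). There were then 2 higher and 5 lower relatives and cofactors, 5 higher and 9 lower other cardiac factors, 2 higher and 0 lower connexins (1 lower with an adjusted p under 0.01 alone), 1 higher and 7 lower connexin 43 partners, 14 higher and 1 lower target genes, and 1294 higher and 2252 lower genes of all tested. Lmna, at 0.0024 and not called, turned negative with total counts (-0.055), with no filter (-0.033), and without WT replicate 2 (-0.078), Nono-KO replicate 1 (-0.035) or Nono-KO replicate 2 (-0.021), and was at 0.12 without Nono-KO replicate 3. Deviations of same-numbered libraries correlated at 0.045, -0.17 and -0.19 across genes, and not every library correlated best with its own number. With 3 libraries per group these values depend on each other, so that they cannot decide whether the replicate numbers pair the libraries. With the replicate number as a block, 2 of the 7 genes rose and 3 fell, and of all genes 3944 rose and 4443 fell. Other scalings moved the median of all genes by -0.056 to 0.053. Depth limits Tbx5 and the genes with a few counts.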

Other observations

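Several heart genes had too few counts for the test and were chosen after their values were seen. Nppb, the natriuretic peptide gene that Gata4 and Nkx2-5 activate, had 1, 0 and 1 counts in Nono-KO libraries, against 13, 7 and 4 counts in WT libraries. The ratio of totals scaled by library size was 0.0877 (exact 95% interval 0.010 to 0.353, counting error only). Myl2, the ventricular myosin light chain, had 5, 4 and 4 counts in Nono-KO libraries and 0 counts in all WT libraries. The exact 95% lower limit of its ratio is 3.21, with counting error in both groups. Setting the WT group at 3 counts gives a ratio of 4.56. The Notch effector Hey2, a ventricular repressor, had 3, 4 and 0 counts in Nono-KO libraries, against 17, 7 and 9 counts in WT libraries, a ratio of 0.223 (exact 95% interval 0.0833 to 0.513), and its relative Hey1 8 counts in Nono-KO and 20 in WT libraries in all. Nppa, the atrial natriuretic peptide gene and a target of Tbx5, had 2, 0 and 1 counts in Nono-KO libraries and 2, 0 and 1 counts in WT libraries.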
